A study of Homo sapiens with 9 samples.

Results

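The genes described here are inhibitors of the G1 phase of the cell cycle, the damage-response gene GADD45A and the D-type cyclins. The 10 members are CDKN1A, CDKN1B, CDKN2A, CDKN2B, CDKN2C, CDKN2D, GADD45A, CCND1, CCND2 and CCND3, and every probe set annotated to one of them alone was taken. This gave 18 of the 54613 probe sets that are not array controls, for 9 of the 10 genes, among 19775 genes with a probe set of their own. No probe set was annotated to CDKN2C in the table used here, so CDKN2C has no value.

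Total RNA of HSF-6, a human embryonic stem cell line, was measured on 9 Affymetrix arrays in 3 groups of 3. The groups were HSF-6(S9) cells with butyrate and DZNep, HSF-6(8) cells with butyrate and DZNep, and HSF-6(8) control cells without them. All cells were kept for 11 passages and grown for 6 days before collection, and no group of HSF-6(S9) cells without the compounds was analysed here. Butyrate inhibits histone deacetylases, and DZNep, 3-deazaneplanocin A, inhibits S-adenosylhomocysteine hydrolase and lowers the histone methyltransferase EZH2. The labels give no doses and do not say what sets the (8) and (S9) sublines apart. Nothing in them tells whether each array had its own culture, so p-values measure the spread between these arrays, which may be technical. In treated HSF-6(S9) against untreated HSF-6(8) cells, subline and compounds cannot be told apart.

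D-type cyclins bind the kinases CDK4 and CDK6 and start the phosphorylation of the retinoblastoma protein, which lets a cell pass from G1 into DNA synthesis. The INK4 proteins, encoded by CDKN2A to CDKN2D, block CDK4 and CDK6, whereas the proteins of CDKN1A and CDKN1B block cyclin complexes of CDK2. CDKN1A is a target of the p53 protein and a well-known responder to histone deacetylase inhibitors in many cell types. CDKN2A and CDKN2B are known targets of Polycomb repression, of which EZH2 is a part. Human embryonic stem cells are known for a short G1 phase.

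The promoter of CDKN1A is shown because GC boxes close to its start are known to carry its response to histone deacetylase inhibitors in other cells. The 250 bases before the start are from RefSeq (GRCh38.p14, chr6:36678464-36678713, + strand), with GC boxes (GGGCGG, searched on both strands) in capitals.
CDKN1A: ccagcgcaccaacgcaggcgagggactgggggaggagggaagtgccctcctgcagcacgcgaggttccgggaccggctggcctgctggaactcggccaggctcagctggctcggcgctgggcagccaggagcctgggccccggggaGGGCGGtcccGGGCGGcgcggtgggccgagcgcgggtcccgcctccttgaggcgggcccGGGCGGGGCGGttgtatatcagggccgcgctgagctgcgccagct
This window holds 4 GC boxes, the last pair sharing a base. At least 1 GC box is in 42.6% of the 35116 RefSeq promoter windows of the same length, and at least 4 are in 7.63%. Of 12 windows for 7 member genes, 9 held at least 1 GC box. A window each of CDKN2C and CCND3 held 5, more than that of CDKN1A, CDKN2B and CDKN2D had 2 each, CDKN1B had 1, and other windows of CDKN2A, CDKN2C and CCND3 held 0 to 2. These are matches of letters and say nothing of binding in these cells.

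Some arrays stood apart. Medians per array ran from 64.8 to 82.9. For 18S ribosomal RNA, the third array read 1517 in treated HSF-6(S9), 850.2 in treated HSF-6(8) and 963 in untreated HSF-6(8) cells, while the remaining 6 arrays read 385 to 542. Ratios of 3′ to 5′ signal for actin control probe sets did not separate them, with 1.18 to 1.39 on the third arrays and 1.20 to 1.67 on the others. All 10 measured pluripotent cell markers lay above the array median on every array, including SOX2 and NANOG. The 12 endoderm markers summed to 2860.2 to 3224 in treated HSF-6(S9) cells, to 2713 to 19600.0 in treated HSF-6(8) cells and to 1408 to 1974 in untreated HSF-6(8) cells. The highest sum was that of the third treated HSF-6(8) array, and no endoderm marker was at 0. Of the 12, 10 had treated HSF-6(8) values that did not overlap the untreated ones, a gap found for 14.9% of all probe sets tested, and 0 were called by limma, against 0.300% of all tested. The 7 measured neuroectoderm markers summed to 6763 to 10111 in treated HSF-6(S9), 6484 to 8193 in treated HSF-6(8) and 5387 to 5935 in untreated HSF-6(8) cells. NES alone read 5418 to 7175, 5494 to 7308 and 5005 to 5624 in the same order of groups, which was most of each sum. Relative to the untreated mean, the median log2 difference of the 7 was 0.45 to 1.59, 0.77 to 1.11 and -0.07 to 0.00. The 6 trophoblast markers summed to 1627 to 2545, 1580.0 to 2347 and 641 to 1019.9 in the same order of groups. Among them, GATA3 rose in treated against untreated HSF-6(8) cells (2.17 on the log2 scale, limma adjusted p = 0.00413) and in treated HSF-6(S9) against untreated HSF-6(8) cells (2.19, adjusted p = 0.00441). The neuroectoderm marker PAX3 rose in treated HSF-6(S9) against untreated HSF-6(8) cells (3.34 ± 0.52, adjusted p = 0.0377), a call kept in 1 of 9 fits that left out an array (adjusted p 0.00664 to 0.124), and was not called in treated against untreated HSF-6(8) cells (2.85 ± 0.52, adjusted p = 0.0877). The part of these cell types in the values of the cell cycle genes was not tested. In bulk RNA, a change in the mix of cells and a change in RNA per cell cannot be told apart.

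No member passed the test in any of the 3 comparisons. Calling a probe set took a limma adjusted p under 0.05 together with a difference of 2-fold or more. Of the 18 member probe sets, 11 passed the filter on low values (at least 3 of the 9 arrays above their own median), for 8 genes. In treated against untreated HSF-6(8) cells, 0 of these 11 were called by limma, where 0.300% of all 29328 probe sets tested were. Between treated HSF-6(S9) and treated HSF-6(8) cells 0 of 11 were called, against 0% of all tested, and between treated HSF-6(S9) and untreated HSF-6(8) cells 0 of 11, against 0.389%. At an unadjusted p under 0.05 the count was also 0 of 11 in each comparison, where 7.52%, 2.43% and 11.3% of all probe sets tested lay, in the same order of comparisons. With the array marks as a replicate block, the count at an unadjusted p under 0.05 became 1 of 11 between treated HSF-6(S9) and treated HSF-6(8) cells (4.57% of all tested) and 1 of 11 between treated HSF-6(S9) and untreated HSF-6(8) cells (15.8%), both times CDKN2A. The 3 comparisons share arrays with each other, so they are not independent of each other.

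Changes are given as log2 fold change with 16 added to each signal, with 95% confidence intervals from limma, fitted without the array marks unless stated. In treated against untreated HSF-6(8) cells, the 11 probe sets had changes from -0.24 to 0.54, with a median of 0.10 beside 0.02 over all probe sets tested. For treated HSF-6(S9) against treated HSF-6(8) cells they ran from -0.90 to 0.26 (median -0.13, beside -0.04), and for treated HSF-6(S9) against untreated HSF-6(8) cells from -0.91 to 0.39 (median -0.04, beside -0.01). In each comparison, 8 of the 11 intervals lay wholly within 2-fold in either direction. The intervals that reached further belonged in every comparison to the same probe sets, 209644_x_at of CDKN2A, 208711_s_at of CCND1 and 200951_s_at of CCND2.

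**Figure D1:**
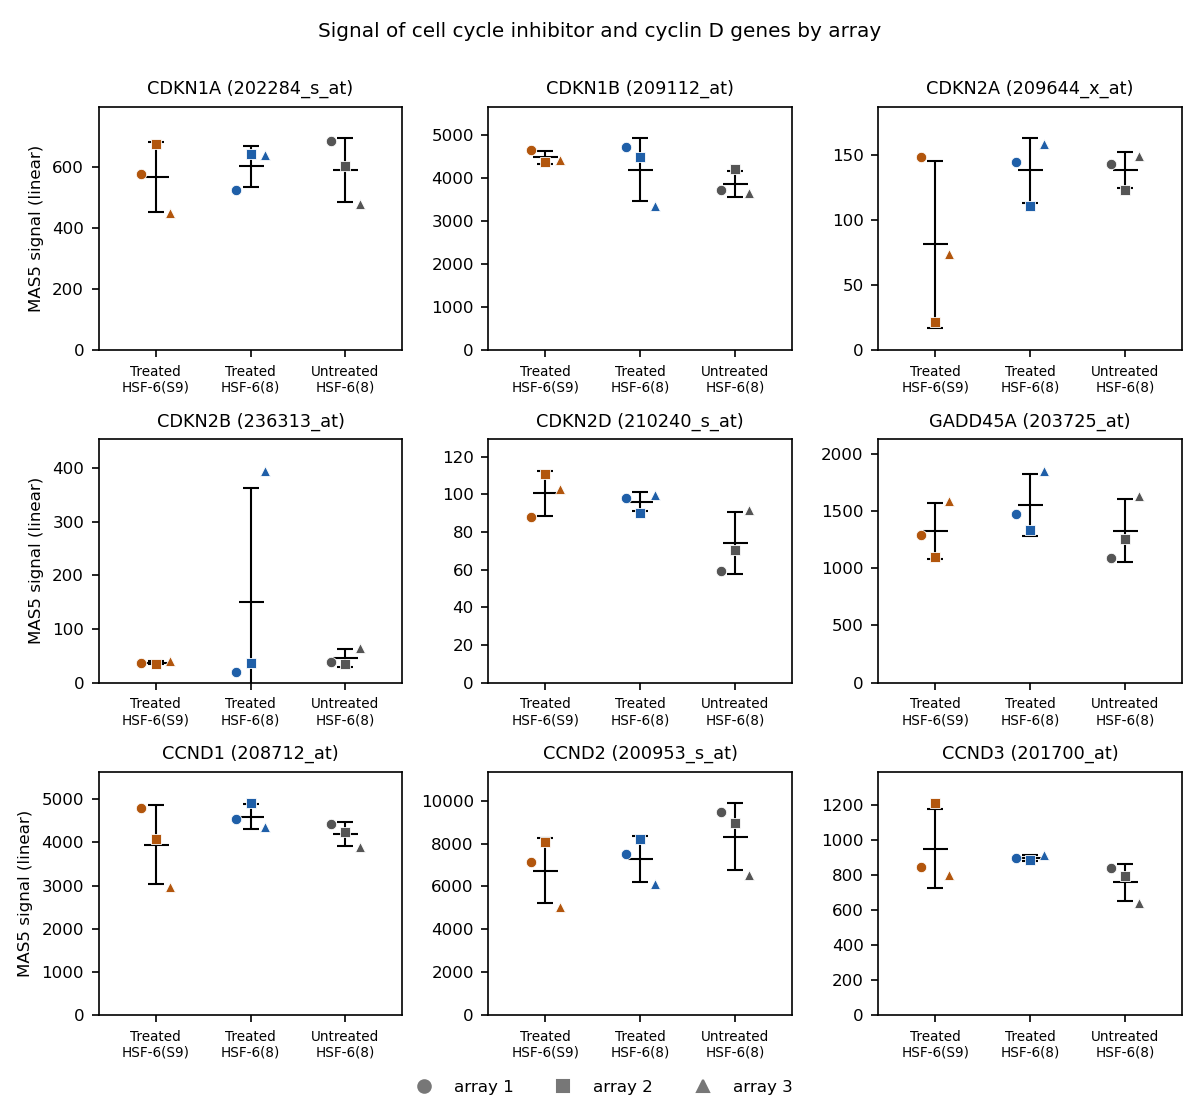
Signal (MAS5, linear) of the probe set with the highest mean of each of the 9 measured genes, by group. Points are arrays (circle for the first, square for the second and triangle for the third), the long tick and bars are mean ± SD of 3 arrays, cut at 0 where the SD reaches below it. CDKN1A lay between 449 and 686 in all groups, and the CDKN2B value of 395 on the third treated HSF-6(8) array stood above the rest.

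CDKN1A encodes p21, the inhibitor of CDK2 complexes that p53 and histone deacetylase inhibitors are best known to raise. Its probe set 202284_s_at had signals of 577, 677 and 449 in treated HSF-6(S9) cells, of 525, 642 and 641 in treated HSF-6(8) cells, and of 686, 604 and 478 in untreated HSF-6(8) cells. The 3 groups overlapped throughout, with the lowest value in treated HSF-6(S9) and the highest in untreated HSF-6(8) cells. Means were 568 ± 114, 602 ± 67.1 and 589.6 ± 105 in that order of groups (SD, n = 3 arrays each). Treated HSF-6(8) cells differed from untreated ones by 0.04 ± 0.22 (SE, limma adjusted p = 0.999), with an interval from -0.45 to 0.53, which is 0.732 to 1.44 times the control level. Treated HSF-6(S9) cells differed from untreated HSF-6(8) cells by -0.06 ± 0.22 (interval -0.55 to 0.43, adjusted p = 0.959), and from treated HSF-6(8) cells by -0.10 ± 0.22 (interval -0.59 to 0.39, adjusted p = 1). With only the first and second arrays of each group, the change in treated against untreated HSF-6(8) cells was -0.15. On its array, the CDKN1A probe set ranked above 74.3% to 80.7% of all probe sets, so signal well above the array median was measured in every sample, controls included.

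CDKN1B encodes p27, which holds cyclin E and cyclin A complexes of CDK2 inactive. Probe set 209112_at had 4669.6, 4385 and 4416 in treated HSF-6(S9) cells, 4724, 4506 and 3359 in treated HSF-6(8) cells and 3739.5, 4207 and 3656 in untreated HSF-6(8) cells. All 3 treated HSF-6(S9) values lay above all 3 untreated values, while the treated HSF-6(8) group held both the highest and the lowest of the 9. The difference of treated HSF-6(S9) from untreated HSF-6(8) cells was 0.22 ± 0.18 (interval -0.20 to 0.63, limma adjusted p = 0.736). Groups that do not overlap are common in that comparison, at 17.4% of all probe sets tested, and CDKN1B was the 1 member of 11 with such a gap. In treated against untreated HSF-6(8) cells CDKN1B differed by 0.10 ± 0.18 (interval -0.31 to 0.52, adjusted p = 0.999).

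The INK4 genes had low signal. CDKN2A encodes the CDK4 inhibitor p16 and, from another reading frame, the p53 activator ARF. Its 209644_x_at probe set, of a kind that by Affymetrix naming may also match other transcripts, had 149, 21.3 and 74.0 in treated HSF-6(S9) cells, 145, 111 and 159 in treated HSF-6(8) cells, and 143, 123 and 149.6 in untreated HSF-6(8) cells. The second HSF-6(S9) array was the lowest of all, and the first was among the other groups. The fitted difference of treated HSF-6(S9) from untreated HSF-6(8) cells was -0.91 ± 0.45 (interval -1.92 to 0.10, limma adjusted p = 0.502). It was -0.34 without the second HSF-6(S9) array and -1.41 without the first. The difference from treated HSF-6(8) cells was -0.90 ± 0.45 (adjusted p = 1). With the replicate block the intervals were -1.73 to -0.09 against untreated HSF-6(8) cells (limma adjusted p = 0.272) and -1.72 to -0.08 against treated HSF-6(8) cells (adjusted p = 0.889). Treated and untreated HSF-6(8) cells differed by -0.01 ± 0.45 (adjusted p = 0.999), and that interval still reached from -1.02 to 1.00. The other CDKN2A probe sets, 207039_at and 211156_at, did not pass the filter and stayed at or below 43.4 on all arrays.

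CDKN2B, the neighbour of CDKN2A and the gene of the CDK4 and CDK6 inhibitor p15, did not pass the filter with either probe set. 236313_at had 37.3, 34.0 and 39.7 in treated HSF-6(S9) cells, 19.3, 37.3 and 395 in treated HSF-6(8) cells and 37.7, 35.3 and 64.7 in untreated HSF-6(8) cells. A single array, the third of treated HSF-6(8) cells, was far above the other 8, which overlapped across groups. The second probe set, 207530_s_at, read 6.25 on that array and 3.77 to 12.4 over all 9. It ranked above only 6.51% to 20.4% of probe sets, too dim to tell whether the high value on that array was shared. That array also had the endoderm sum of 19600.0, where the first and second of its group had 2713 and 3427. Its 10 fibroblast and stromal markers, all above the array median, summed to 43047, where the first and second had 20217 and 21722. The part of other cell types in the CDKN2B value was not tested. In a fit of all probe sets without a filter, 236313_at differed between treated and untreated HSF-6(8) cells by 0.60 ± 0.75 (limma adjusted p = 1).

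CDKN2D encodes p19, another INK4 inhibitor of CDK4 and CDK6. Probe set 210240_s_at had 87.7, 111 and 103 in treated HSF-6(S9) cells, 97.9, 90.3 and 99.7 in treated HSF-6(8) cells and 59.5, 70.4 and 91.9 in untreated HSF-6(8) cells. Of the 6 treated values, 4 lay above every untreated one, and the third untreated array reached into the range of both treated groups. The changes were 0.33 ± 0.19 for treated against untreated HSF-6(8) cells (interval -0.09 to 0.76, limma adjusted p = 0.83) and 0.39 ± 0.19 for treated HSF-6(S9) against untreated HSF-6(8) cells (interval -0.04 to 0.81, adjusted p = 0.494). These signals are close to the array median, ranking above 46.1% to 58.9% of probe sets. The other CDKN2D probe set, 213586_at, had 23.2 or less on every array and did not pass the filter. In a fit without a filter it went the other way, by -0.46 ± 0.23 in treated against untreated HSF-6(8) cells (limma adjusted p = 0.848). In treated HSF-6(S9) against untreated HSF-6(8) cells it differed by -0.48 ± 0.23 (adjusted p = 0.612).

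GADD45A encodes a stress-induced protein that takes part in growth arrest and DNA repair and is itself a p53 target. Probe set 203725_at had 1291, 1099 and 1587 in treated HSF-6(S9) cells, 1477, 1329.6 and 1849.5 in treated HSF-6(8) cells, and 1091, 1257 and 1633 in untreated HSF-6(8) cells. The groups overlapped, and in each of them the third array was the highest. Treated HSF-6(8) cells differed from untreated ones by 0.23 ± 0.23 (interval -0.29 to 0.75, limma adjusted p = 0.979). Treated HSF-6(S9) cells differed from untreated HSF-6(8) cells by 0.00 ± 0.23 (interval -0.51 to 0.52, adjusted p = 0.998).

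**Figure D2:**
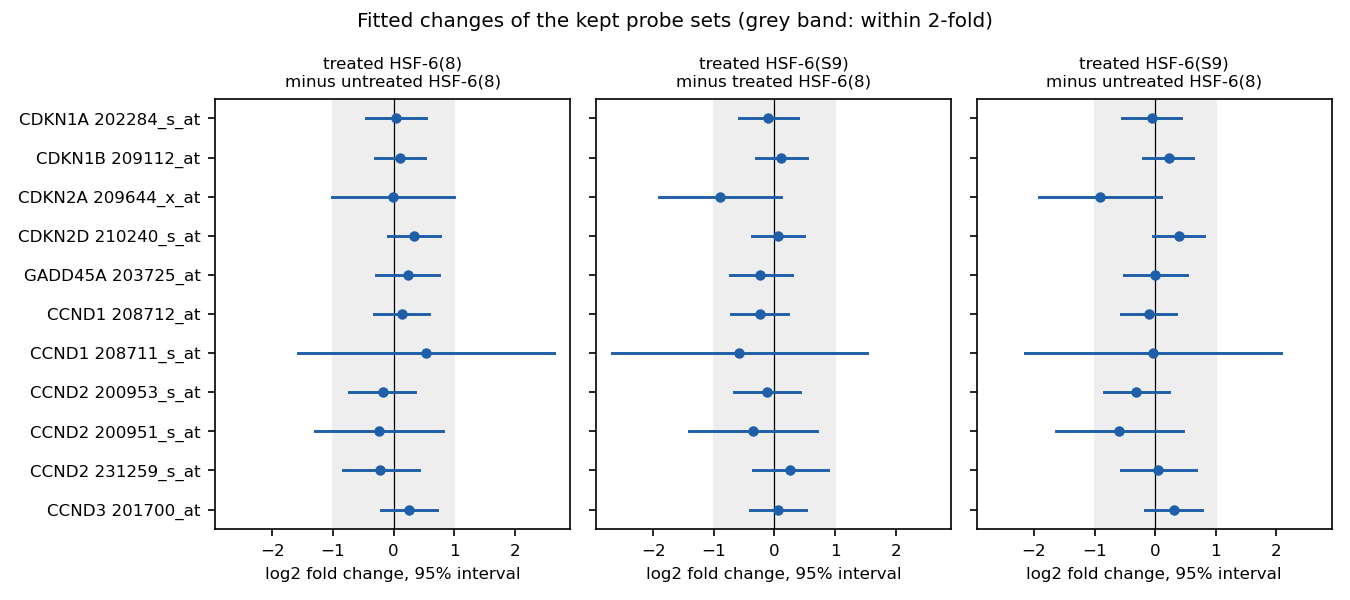
Log2 fold change (point) and 95% confidence interval (line) of the 11 kept probe sets in the 3 comparisons, from limma with 16 added to each signal. The grey band marks changes of less than 2-fold. All points lie inside it, and 8 of 11 intervals do so in each panel.

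Cyclin D1 (CCND1), which links growth factor and WNT signals to CDK4, was measured by 2 probe sets that behaved differently. The brighter, 208712_at, had 4798, 4086 and 2969 in treated HSF-6(S9) cells, 4539.8, 4904 and 4348 in treated HSF-6(8) cells, and 4435, 4246 and 3905 in untreated HSF-6(8) cells. These groups overlapped, with the third HSF-6(S9) array lowest. The change in treated against untreated HSF-6(8) cells was 0.13 ± 0.20 (interval -0.33 to 0.59, limma adjusted p = 0.999). Between treated HSF-6(S9) and treated HSF-6(8) cells it was -0.24 ± 0.20 (interval -0.71 to 0.22, adjusted p = 1).

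The second CCND1 probe set, 208711_s_at, had 430.4, 366 and 1357 in treated HSF-6(S9) cells, 464, 596 and 2618 in treated HSF-6(8) cells, and 264, 336 and 2546 in untreated HSF-6(8) cells. The third array of every group was more than 2-fold above the other arrays of its group, while 208712_at was lowest of its group on those same arrays. The third arrays were above the mean of the first and second by 1.73, 2.28 and 3.03 on the log2 scale in treated HSF-6(S9), treated HSF-6(8) and untreated HSF-6(8) cells. Across the 9 arrays the 2 probe sets had a Pearson r of -0.42, a description of arrays that share groups and marks. Of all kept probe sets, 1.59% had the third array at least 2-fold above both others in all 3 groups, and of the 11 kept member probe sets this was the 1 that did. The 18S ribosomal RNA signal was also highest on the third arrays, and its part in these values was not tested.

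With this spread, the change of 208711_s_at in treated against untreated HSF-6(8) cells was 0.54 ± 0.93 (interval -1.57 to 2.65, limma adjusted p = 0.999). With the array marks of the titles as a replicate block the value stayed 0.54 and its interval narrowed to -0.12 to 1.19 (adjusted p = 0.568). With only the first and second arrays it was 0.79 ± 0.22 (adjusted p = 0.296). Leaving out the third array of treated HSF-6(8) cells turned the direction (-0.22 ± 0.94), and leaving out that of untreated HSF-6(8) cells moved the value to 1.55. None of these fits called CCND1.

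Cyclin D2 (CCND2) had 4 probe sets, of which 3 passed the filter. The brightest, 200953_s_at, had 7121, 8052 and 5050.2 in treated HSF-6(S9) cells, 7492, 8212 and 6126 in treated HSF-6(8) cells, and 9452, 8956 and 6545 in untreated HSF-6(8) cells. The first and second untreated arrays were the highest of the 9 and the third arrays the lowest of each group. Treated HSF-6(8) cells differed from untreated ones by -0.18 ± 0.24 (interval -0.73 to 0.36, limma adjusted p = 0.999), and treated HSF-6(S9) cells by -0.31 ± 0.24 from untreated HSF-6(8) cells (interval -0.85 to 0.23, adjusted p = 0.702).

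Probe set 200951_s_at of CCND2 had 211, 263 and 271 in treated HSF-6(S9) cells, 204, 226 and 695 in treated HSF-6(8) cells and 335, 254 and 642 in untreated HSF-6(8) cells. Here the third arrays of both HSF-6(8) groups stood above all others, whereas the third HSF-6(S9) array was level with its group. The dim 200952_s_at did not pass the filter, and the third arrays read 190.3 in treated and 178 in untreated HSF-6(8) cells, where the first and second arrays of all groups read 10.9 to 50.3. In treated HSF-6(S9) cells the third array of 200952_s_at was also the highest, by 1.56 on the log2 scale above the mean of the first and second, beside 2.10 in treated and 1.93 in untreated HSF-6(8) cells. The remaining probe set, 231259_s_at, lay between 104 and 255. Changes over the 3 kept probe sets of CCND2 ran from -0.24 to -0.18 in treated against untreated HSF-6(8) cells, and from -0.59 to 0.05 in treated HSF-6(S9) against untreated HSF-6(8) cells. For 200951_s_at the -0.24 in treated against untreated HSF-6(8) cells was -0.78 ± 0.35 without the third treated array (limma adjusted p = 0.64) and 0.13 without the third untreated array. Its difference between treated HSF-6(S9) and treated HSF-6(8) cells was -0.35, but 0.19 once the third array of treated HSF-6(8) cells was left out.

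**Figure D3:**
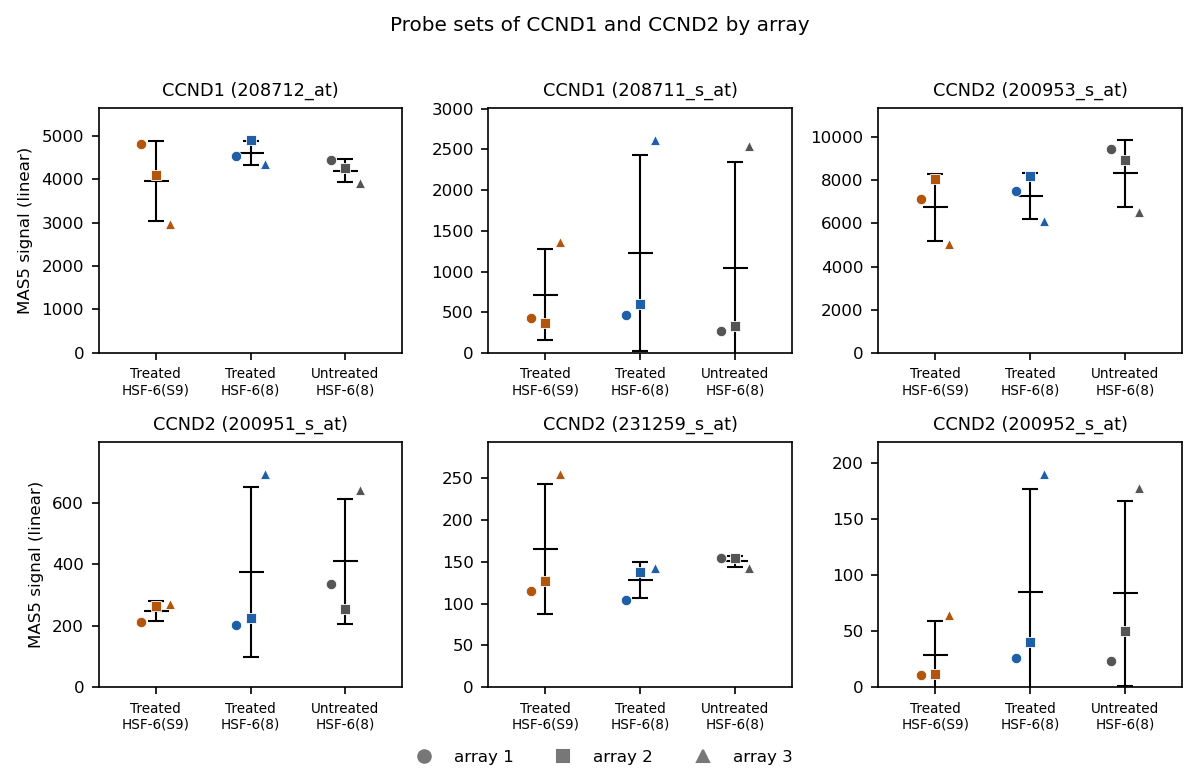
Signal (MAS5, linear) of the 2 CCND1 and 4 CCND2 probe sets by group, with arrays as points (triangle for the third array) and mean ± SD of 3 arrays as tick and bars. The triangles are high for 208711_s_at (1357, 2618 and 2546) and low for 200953_s_at (5050.2, 6126 and 6545).

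Cyclin D3 (CCND3) is another D-type partner of CDK4 and CDK6. Probe set 201700_at had 847, 1209 and 798 in treated HSF-6(S9) cells, 895, 884 and 917 in treated HSF-6(8) cells and 840.2, 792 and 639.7 in untreated HSF-6(8) cells. All 3 treated HSF-6(8) values lay above all 3 untreated values, a gap found for 14.9% of all probe sets tested and for 1 of the 11 here. The difference was 0.25 ± 0.21 (interval -0.21 to 0.72, limma adjusted p = 0.95). Against untreated HSF-6(8) cells, treated HSF-6(S9) cells differed by 0.31 ± 0.21 (interval -0.16 to 0.77, adjusted p = 0.645). The second CCND3 probe set, 1562028_at, ranged from 3.11 to 90.0 and did not pass the filter.

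Between the sublines under the same compounds, 0 of the 11 probe sets had groups that did not overlap, against 6.46% of all tested. As a description of pattern over the 9 arrays, the genes with signals most like CDKN1A were GEMIN4, HROB and GRAPL-AS1 (Pearson r of 0.98, 0.96 and 0.96). For CCND2 they were EGR1, GRB7 and TMEM125 (0.98 each), and for GADD45A MTSS1, ZBTB8A and ZNF660 (0.98, 0.97 and 0.96). The member signals varied little (SD over arrays of 0.21, 0.28 and 0.26 on the log2 scale), and each gene named here is the best match among all genes tested, so a high r on 9 arrays comes with that choice.

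Other genes of the same pathways were taken from 4 lists. Of 32 genes of the G1 to S network, all 32 were tested and 0 were called in each of the 3 comparisons by limma. In treated against untreated HSF-6(8) cells their median change was -0.03, beside 0.02 over all tested, and 3 of 32 had groups that did not overlap, beside 14.9%. CDK4, the kinase the INK4 proteins block, differed by -0.07 ± 0.20 and CDK6 by -0.06 ± 0.20 (adjusted p = 0.999 each), and the cyclin E1 gene CCNE1 by -0.03 ± 0.20 (adjusted p = 0.999). The largest changes were those of FBXO4, an F-box gene linked to cyclin D1 turnover, and of CCNA1, the germline cyclin A. FBXO4 had 199.9, 248 and 222 in treated against 64.6, 169 and 63.2 in untreated HSF-6(8) cells (1.17 ± 0.35, adjusted p = 0.337). CCNA1 had 116, 115 and 144 against 78.6, 68.4 and 21.3 (1.07 ± 0.32, adjusted p = 0.348). In treated HSF-6(S9) against untreated HSF-6(8) cells the values were 1.47 ± 0.35 for FBXO4 (adjusted p = 0.144) and 1.19 ± 0.32 for CCNA1 (adjusted p = 0.191). RBL1, the gene of the retinoblastoma relative p107, differed by -0.55 ± 0.45 between treated HSF-6(S9) and treated HSF-6(8) cells (adjusted p = 1), and by -0.15 without the third treated HSF-6(8) array. Without the third untreated array, CCNA1 differed by 0.65 in treated HSF-6(8) and by 0.77 in treated HSF-6(S9) cells.

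CDKN1C, an inhibitor of the same family as CDKN1A and CDKN1B and an imprinted gene, had 2228, 2299 and 2207 in treated HSF-6(S9) cells, 2287, 1922 and 670.4 in treated HSF-6(8) cells, and 1002, 1226 and 916 in untreated HSF-6(8) cells. The HSF-6(S9) values lay above all untreated ones, a gap found for 17.4% of all probe sets tested. The first and second treated HSF-6(8) values also lay above the untreated ones, and the third treated HSF-6(8) value was the lowest of the 9. Treated HSF-6(S9) cells differed from untreated HSF-6(8) cells by 1.10 ± 0.40 (limma adjusted p = 0.332), and treated HSF-6(8) cells by 0.46 ± 0.40 (adjusted p = 0.963). In a fit that left out the array with the high endoderm sum, the HSF-6(S9) difference had a smaller SE (1.10 ± 0.18). It was called in that fit (limma adjusted p = 0.0493), but in only 1 of 9 fits that left out an array (adjusted p up to 0.577). The array left out is in neither group of that comparison and enters it only through the shared estimate of spread. Without the same array, the treated HSF-6(8) difference was 1.00 ± 0.20 (adjusted p = 0.145). Between treated HSF-6(S9) and treated HSF-6(8) cells CDKN1C differed by 0.64 ± 0.40 and was not called. Only there was it among the 2 largest changes of its list. Its other comparisons were singled out after the values were seen.

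Of 29 p53 target genes, 24 were tested, and 0 were called by limma in each comparison. Their median change in treated against untreated HSF-6(8) cells was -0.08, and 5 of 24 had groups that did not overlap, beside a median of 0.02 and 14.9% over all tested. Only 9 of these 24 changes were positive. MDM2, the p53 inhibitor that is itself a p53 target, differed by -0.01 ± 0.28 (adjusted p = 0.999). The largest change was that of TP53I3, an oxidoreductase gene, with 2482, 2404 and 2149 in treated against 1291, 1313 and 1784 in untreated HSF-6(8) cells (0.69 ± 0.20, adjusted p = 0.299). Treated HSF-6(S9) cells had TP53I3 signals of 2363, 2923 and 3006, a difference of 0.92 ± 0.20 from untreated HSF-6(8) cells (adjusted p = 0.112). SFN, the stratifin gene, had 1187, 1268 and 3197 in treated against 969.7, 933 and 1530.0 in untreated HSF-6(8) cells (0.59 ± 0.38, adjusted p = 0.878), a difference of 0.14 without the third treated array, which had the high endoderm sum. TP53INP1, a stress-response gene, differed by 0.72 ± 0.35 in treated HSF-6(S9) against untreated HSF-6(8) cells (adjusted p = 0.489). In that comparison 8 of the 24 genes had groups that did not overlap, beside 17.4% of all probe sets tested.

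Of 17 regulators of the INK4 locus and of CDKN1A, 16 were tested and 0 were called by limma. Groups did not overlap for 4 of the 16 in treated against untreated HSF-6(8) cells, beside 14.9% of all probe sets tested. In treated HSF-6(S9) against untreated HSF-6(8) cells the count was 5 of 16, beside 17.4%. The GC box factors SP1 and SP3 differed by 0.10 ± 0.19 and -0.01 ± 0.19 in treated against untreated HSF-6(8) cells (adjusted p = 0.999 each). ETS1, a transcription factor that activates CDKN2A in other cells, had 468, 340.3 and 707 in treated HSF-6(S9) cells, 519.7, 563 and 1425 in treated HSF-6(8) cells, and 1263, 1242 and 2080.5 in untreated HSF-6(8) cells. The HSF-6(S9) values were below all untreated values, and in each group the third array was the highest. The HSF-6(S9) difference from untreated HSF-6(8) cells was -1.59 ± 0.42 (adjusted p = 0.183), and with the replicate block it was called (-1.59 ± 0.21, adjusted p = 0.0275). The treated HSF-6(8) difference was -0.97 ± 0.42 (adjusted p = 0.641; 0.122 with the block). ID1, a repressor of CDKN2A in other cells, differed by -0.66 ± 0.47 in treated against untreated HSF-6(8) cells (adjusted p = 0.909), and by -0.08 without the third treated array. KLF4, an activator of CDKN1A in other cells, differed by -0.64 ± 0.30 in treated HSF-6(S9) against untreated HSF-6(8) cells (adjusted p = 0.477), and by -0.35 without the third HSF-6(S9) array.

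Of 15 genes known to respond to histone deacetylase inhibitors in other cells, 11 were tested and 0 were called by limma. Groups did not overlap for 1 of the 11 in treated against untreated HSF-6(8) cells, beside 14.9% of all probe sets tested. In treated HSF-6(S9) against untreated HSF-6(8) cells the count was 3 of 11, beside 17.4%. GSN, the gene of the actin-severing protein gelsolin, had 805, 1178 and 977 in treated HSF-6(S9) cells, 849, 993 and 1477 in treated HSF-6(8) cells, and 568, 532 and 449 in untreated HSF-6(8) cells. Every treated value was above every untreated one. The changes were 1.04 ± 0.25 in treated HSF-6(8) (adjusted p = 0.192) and 0.90 ± 0.25 in treated HSF-6(S9) cells (adjusted p = 0.191) against the same controls. The median of the 11 was 0.09 in treated against untreated HSF-6(8) cells, beside 0.02 over all tested, and 0.44 in treated HSF-6(S9) against untreated HSF-6(8) cells, beside -0.01. No direction of response was set for the genes of this list, so these medians do not measure a response. DHRS2, a dehydrogenase gene raised by butyrate in other cells, had 56.8, 44.2 and 313 in treated against 25.5, 52.5 and 32.8 in untreated HSF-6(8) cells (1.13 ± 0.57, adjusted p = 0.764). The value of 313 came from the third treated HSF-6(8) array, as the high CDKN2B value did, and without that array the DHRS2 difference was 0.35. CRABP2, a retinoic acid binding protein gene, differed by 1.29 ± 0.62 in treated HSF-6(S9) against untreated HSF-6(8) cells (adjusted p = 0.492), and by 0.58 without the third untreated array.

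**Figure D4:**
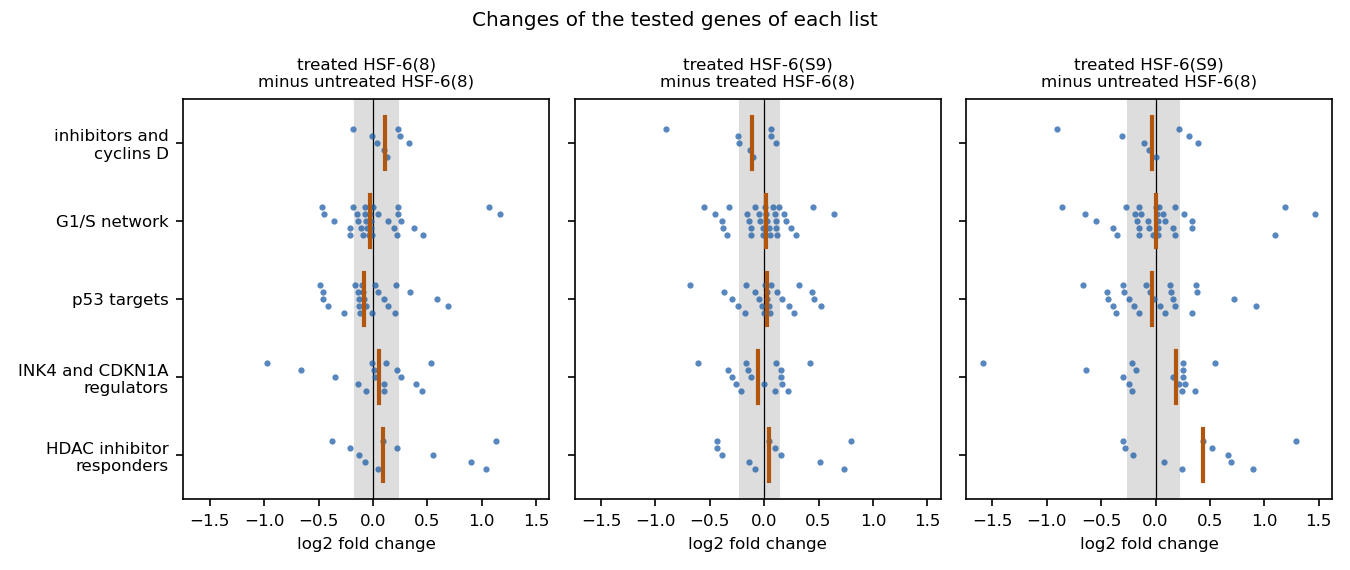
Log2 fold changes (x axis) of the tested genes of 5 lists (rows), each point a gene through its probe set with the highest mean. Orange lines are list medians and the grey band holds the range between the quartiles of all probe sets tested. The medians in treated against untreated HSF-6(8) cells lie between -0.08 and 0.12.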

How the data were processed

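The authors deposited linear probe set intensity values, made with Affymetrix Expression Console and MAS5 per the submitters' processing notes, which name no version. Trimmed by 2% at either end, the mean was 500.1 on every array, so arrays had been scaled to a common level. The table has no detection calls. Of 54675 probe sets, 62 were controls, and of the others 41091 had 1 gene, 1801 several and 11721 none. Of the 41091, 41037 were matched by Entrez number to a RefSeq gene and took its symbol.

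Log2 of signal plus 16 was fitted over all 9 arrays in R 4.3.3 by lmFit and eBayes of limma 3.58.1 (6 residual and 3.20 prior degrees of freedom), per probe set, with two-sided p-values adjusted by Benjamini-Hochberg over the 29328 probe sets with at least 3 arrays above their median. The steps were tested on simulated data. The number of arrays limits the precision. The array marks of the titles (no mark, 1 prime, 2 primes) were taken as replicate numbers. Deviations from group means correlated between same-marked arrays with r of 0.28 to 0.59, 0.22 to 0.41 and 0.12 to 0.54 in the 3 comparisons. All lay above 0.1, so the marks were tried as pairs in the replicate block, although no label explains them. Deviations cancel within a group, so a shift shared by the third arrays alone also raises the r of the others. Differently marked arrays were not compared, so these r do not establish pairing by mark. The main fit held the group alone, so its p-values and intervals leave any pairing out. Within a group, no 2 arrays were copies. Arrays of different groups were not checked for copies.

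Members and lists were chosen with earlier results of these data known. All member probe sets were named. From each of the 4 pathway lists, called genes or else the 2 largest changes were named, with called genes of the marker lists (GATA3, PAX3). Further genes (CDK4, CDK6, CCNE1, MDM2, MYC, SP1, SP3) were named for their known roles, after values were seen. CDKN1C, named for its change between the treated sublines, was described in the other comparisons after values were seen.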

Additional observations from a re-analysis of the deposited data

How the results depend on the processing

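Over 22 alternatives, the number of called member probe sets stayed 0 in all 3 comparisons. They were 1 or 64 in place of 16, no filter or one at the 75th percentile, 1 probe set or the mean per gene, quantile normalization, trended and robust moderation, only the groups compared, both blocks, only the first and second arrays, no minimum fold, and each of 9 arrays left out. The lowest adjusted p of a member was 0.296 in treated against untreated HSF-6(8) cells (CCND1 208711_s_at, first and second arrays only), 0.853 between the treated sublines, and 0.176 in treated HSF-6(S9) against untreated HSF-6(8) cells (CDKN2A, without the first HSF-6(S9) array). Counts over all probe sets moved more. In treated against untreated HSF-6(8) cells 88 were called, 148 with the replicate block, 214 with the third arrays as a block, 53 with no filter, 48 with the 75th percentile filter, 54 with only the groups compared, 46 with the first and second arrays only, and 42 to 111 without single arrays. In treated HSF-6(S9) against untreated HSF-6(8) cells 114 were called, 233 and 295 with these blocks, 59 with no filter, 62 with only the groups compared, 47 with the first and second arrays only, and 36 to 146 without single arrays. Between the treated sublines 0 or 1 were called. The replicate block changed no call on the 4 lists apart from ETS1, which the block of the third arrays also called. The cause of these moves was not tested. Signals near the array median, as for CDKN2A and CDKN2D, limit what can be seen of the INK4 genes.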

Other observations

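TXNIP, a gene that inhibitors of histone deacetylases raise in other cells, had signals of 6812, 6882 and 4248 in treated HSF-6(S9) cells, 6947, 6644 and 799.9 in treated HSF-6(8) cells, and 6019.6, 6059 and 1335 in untreated HSF-6(8) cells. The third array was the lowest of each group. The proto-oncogene MYC, an activator of CCND2 in other cells, had 1149, 858 and 659.9 in treated HSF-6(S9) cells, 1036, 931 and 1540.1 in treated HSF-6(8) cells and 1498, 1416 and 1872 in untreated HSF-6(8) cells.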
